A study of Mus musculus with 34 samples.

Results

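Nkx2-1, Nkx2-2, Nkx6-1, Dbx1, Irx3, Mnx1, Lbx1, Tlx3 and Gsx2 are 9 homeobox genes that pattern the neural tube. They were taken by symbol from the gene column of the deposited tables, where 8 stood under their own name and Nkx2-1 under its RefSeq synonym Titf1. They are 9 of 16002 genes that could be placed, out of 18835 gene names in the tables. A gene was placed at the position on which at least 2 of its peaks agreed when the peak's summit was moved by the distance given to the gene. Where no single position led, a summit listed at no distance from the gene was used instead, if there was one. The resulting position is called the gene point here, and it was not checked against an annotation of mm9, the build of the files. Every region whose midpoint lay within 100 kb of a gene point was counted for that gene.

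The series measured where transcriptional coactivators bind in the mouse embryo, by chromatin immunoprecipitation and sequencing. SMARCA4, the ATPase of the SWI/SNF chromatin remodelling complex, was pulled down through a FLAG tag knocked into its gene in 129/C57BL/6 mice. Neural tube, forebrain, midbrain, hindbrain, limb, face and heart came from embryonic day 11.5, and embryonic stem cells (ESC) were used as well. FLAG lists of EP300 (face, ESC), NCOA1 and NCOA2 (hindbrain) and SMARCC2 (hindbrain, face) carry the same genotype tag in the labels, SMARCA4/FLAG knock-in. Histone marks came from limb and forebrain of CD1 embryos of the same day. Each tissue library was made from material of about 150 or 300 embryos of both sexes (neural tube, limb, forebrain and hindbrain SMARCA4 and all histone libraries: 150; midbrain: 300), so a region can come from any cell of the dissected tissue, and a region present in few cells cannot be told apart from a weaker one in many. Histone marks of neural tube were not analysed here. The sample used as hindbrain has forebrain in its tissue tag and was kept as hindbrain by its title.

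In the developing neural tube, Sonic hedgehog from the floor plate and BMP and WNT proteins from the roof plate form opposing gradients along the dorsoventral axis. Progenitors read them through homeodomain factors that repress each other across shared borders, and each band of progenitors then makes its own class of neurons. In cells that do not use such a gene, its promoter is commonly held by Polycomb group proteins, which deposit H3K27me3, whereas H3K4me3 marks gene starts and H3K27ac marks active starts and enhancers.

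There was 1 library per condition, so no test was possible, and every comparison is a description of these libraries read against all 16002 genes. The deposited SMARCA4 lists differ in length: neural tube holds 14362 regions, forebrain 7349, hindbrain 5460, limb 5251 and midbrain 1513. The control libraries of neural tube, forebrain and limb were not analysed here. As a check of the tissue, neural tube regions lay within 100 kb of all 5 placed neural tube and trunk markers (Hoxc6, Hoxd8, Pax2, Sox2, Pax6). Of all genes, 89.9% had such a region, so 5 of 5 is near the background. Forebrain regions lay at 3 of these 5 (71.5% of all genes) and limb regions at 2 (63.1%). Neural tube regions also lay at 5 of 5 placed limb, 5 of 5 somite and muscle, 5 of 5 forebrain and 4 of 5 midbrain and hindbrain markers. They lay at 2 of 3 neural crest, 3 of 4 endothelial and 1 of 1 blood markers as well. The presence of a neural tube region thus did not set the tissues apart.

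The SMARCA4 neural tube list covered the gene point itself at 6 of the 9, Nkx2-2, Nkx6-1, Irx3, Lbx1, Tlx3 and Gsx2 (51.3% of all points). The limb (24.8%), hindbrain (5.97%) and midbrain (1.16%) lists did so at none of the 9. Among points under limb H3K27me3, where all 9 lie, neural tube covered 66.3%, so 6 of 9 is close to the background. The upstream sequences of 5 of the 6 covered starts are shown because these regions lie over the gene point. They are the 250 bases before the RefSeq start of GRCm38.p6, a later build than that of the peak files, so the RefSeq start has not been shown to be the same base as the gene point. RefSeq's table held 8 of the 9 genes. They are printed 5′ to 3′ in the direction of transcription, with every CG pair in capitals. Nkx2-2 is chr2:147186403-147186652 on the minus strand, Nkx6-1 chr5:101664712-101664961 on the minus strand, Irx3 chr8:91801655-91801904 on the minus strand, Tlx3 chr11:33203589-33203838 on the minus strand and Gsx2 chr5:75075351-75075600 on the plus strand.
Nkx2-2: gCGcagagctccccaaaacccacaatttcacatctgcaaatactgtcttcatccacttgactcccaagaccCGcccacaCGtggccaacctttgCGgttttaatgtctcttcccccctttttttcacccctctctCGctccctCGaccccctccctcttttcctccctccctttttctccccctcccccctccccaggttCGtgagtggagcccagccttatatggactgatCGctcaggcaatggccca
Nkx6-1: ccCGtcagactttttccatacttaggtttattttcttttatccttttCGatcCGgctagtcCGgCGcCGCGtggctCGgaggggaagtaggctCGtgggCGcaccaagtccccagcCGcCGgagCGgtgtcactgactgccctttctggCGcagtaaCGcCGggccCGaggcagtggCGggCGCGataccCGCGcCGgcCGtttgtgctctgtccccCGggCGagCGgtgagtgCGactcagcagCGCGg
Irx3: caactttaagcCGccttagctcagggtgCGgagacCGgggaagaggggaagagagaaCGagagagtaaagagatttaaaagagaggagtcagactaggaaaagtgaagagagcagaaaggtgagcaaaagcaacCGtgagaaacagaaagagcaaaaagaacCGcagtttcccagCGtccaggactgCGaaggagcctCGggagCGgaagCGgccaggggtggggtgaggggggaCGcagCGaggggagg
Tlx3: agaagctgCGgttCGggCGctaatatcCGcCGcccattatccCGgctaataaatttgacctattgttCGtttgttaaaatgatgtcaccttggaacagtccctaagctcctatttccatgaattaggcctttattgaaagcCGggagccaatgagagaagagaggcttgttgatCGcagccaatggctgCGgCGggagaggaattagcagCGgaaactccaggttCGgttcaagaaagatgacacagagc
Gsx2: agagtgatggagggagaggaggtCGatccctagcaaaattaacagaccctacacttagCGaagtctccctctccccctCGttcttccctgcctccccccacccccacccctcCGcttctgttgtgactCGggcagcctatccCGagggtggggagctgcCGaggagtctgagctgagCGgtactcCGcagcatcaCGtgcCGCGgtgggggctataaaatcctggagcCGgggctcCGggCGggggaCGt

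The capitals run densely through Nkx6-1, with 30 CG pairs in 250 bases, a number reached by 5.94% of the 32851 promoters in the RefSeq table. Gsx2 held 16 pairs, Irx3 and Tlx3 13 each, and Nkx2-2 8, which 43% of promoters reach. The median over the 8 genes was 13 pairs against 6 over all promoters. Among the other promoters, Mnx1 had 21 pairs, Dbx1 12 and Nkx2-1 9. The GLI motif TGGGTGGTC, searched on both strands, was in none of the 8 windows and in 0.225% of all. The homeobox core TAATTA, read the same on both strands, was also in none of the 8 and in 4.84% of all. TATAAA was in Dbx1 and Gsx2 on either strand, against 12.4% of all promoters, and ACAAAG, a core of SOX sites, in Dbx1 alone, against 16.5%. No match says only that these letters are absent from the window.

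Across the 9 genes the neural tube list held 26 regions within 100 kb, with 7 at Lbx1, 5 at Gsx2, 4 each at Irx3 and Tlx3, 3 at Mnx1, 1 each at Nkx2-2, Nkx6-1 and Dbx1, and 0 at Nkx2-1. Lbx1 thus had the most and Nkx2-1 none. Counted by the nearest gene point alone, at any distance, 10 neural tube regions fell to these 9 genes. The median was 3 regions a gene against 2 over all genes. A region lay at 8 of the 9 genes, near the 89.9% of all genes that had one. Only Lbx1 stood high in the distribution, since 7.26% of genes had as many. The corresponding shares were 19.6% for Gsx2, 30.8% for Irx3 and Tlx3, and 47.1% for Mnx1.

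The other lists held fewer regions at these genes, apart from face. Forebrain had 7 in all and at least 1 at 5 of 9 genes (71.5% of all genes), limb 7 and at 5 of 9 (63.1%), hindbrain 5 and at 3 of 9 (58.8%), and midbrain 1 and at 1 of 9 (19.7%). Heart had 10 regions at 5 of 9 genes (74.4%), ESC 9 at 5 of 9 (61.1%), and face, the longest list with 35099 regions, 51 at 9 of 9 (98%). Each of these counts but that of face lay below its background share. The midbrain control held 36 regions at 8 of the 9 genes (94.2% of all genes) and the EP300 face control 45 at 9 of 9 (96.9%), more than the neural tube list.

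**Figure D1:**
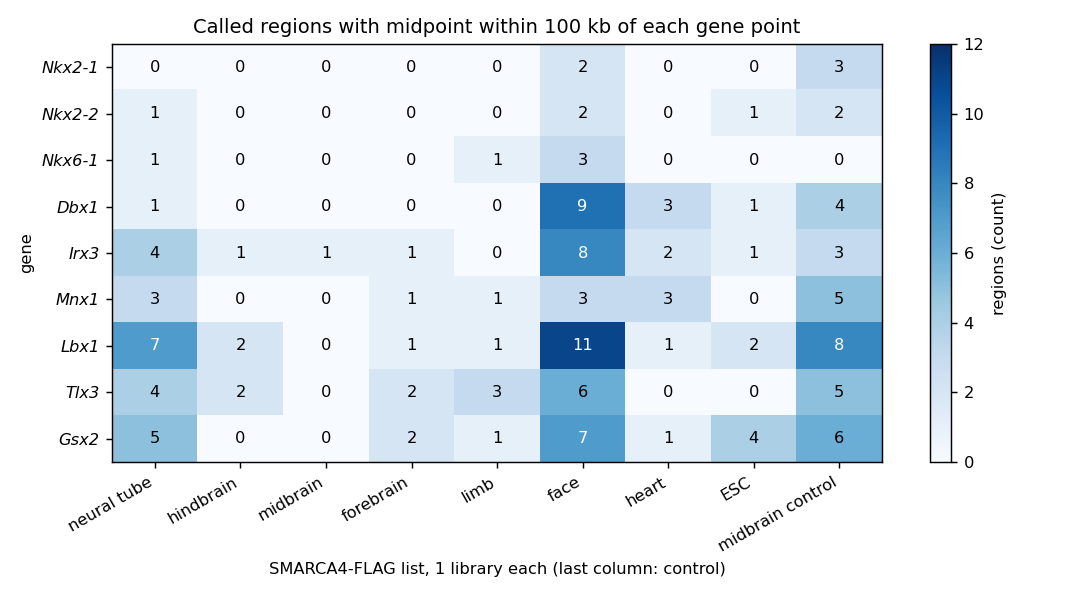
Number of called SMARCA4 regions with midpoint within 100 kb of each gene point (rows) in each list (columns, 1 library each, the last a control); darker cells hold more. Neural tube reaches 7 at Lbx1 and 0 at Nkx2-1, midbrain holds 1 region at Irx3 and none elsewhere, and face and the midbrain control hold regions at most genes.

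A gene was called higher in neural tube where it had at least 2 neural tube regions and at least 2 times as many as the other list. Against forebrain this held for Irx3, Mnx1, Lbx1, Tlx3 and Gsx2, 5 of the 9, against 41.6% of all genes. Against midbrain the same 5 genes were called (66.3% of all genes), and against hindbrain again these 5 (56.3%). Against limb 4 were called, Irx3, Mnx1, Lbx1 and Gsx2 (51.7%), because Tlx3 had 4 regions in neural tube and 3 in limb. None of the 9 was higher in forebrain (3.39% of all genes), midbrain (0.481%), hindbrain (2.66%) or limb (0.744%). These counts are near the background, so the number of regions within 100 kb gave no result about these 9 genes.

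The lists differ in length as well. The neural tube sum was 3.71 times that of forebrain, 26 times midbrain, 5.2 times hindbrain and 3.71 times limb, while the whole neural tube list was 1.95, 9.49, 2.63 and 2.74 times as long. With both lists cut to the length of the shorter by their rank or score, the sums were 9 in neural tube and 7 in forebrain, 1 and 1 for midbrain, 5 and 5 for hindbrain, and 5 and 7 for limb. At these lengths 2 genes stayed higher than in forebrain (Irx3 and Lbx1), 1 than in hindbrain and 1 than in limb (both Irx3), and 0 than in midbrain, while Lbx1 was higher in hindbrain. The share of all genes called at these lengths was not calculated, so these counts cannot be read against a background.

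At the gene point itself the lists differed more. A neural tube region covered 6 of 9 points (51.3% of all points). A forebrain region covered 1, Gsx2 (28.8%), and a face region the same 1 (44.8%). Limb (24.8%), hindbrain (5.97%), heart (3.26%), midbrain (1.16%) and ESC (0.325%) covered 0. For hindbrain, heart, midbrain and ESC a count of 0 among 9 genes is what so low a background gives, and it says little there.

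Set pairwise, a neural tube region and no limb region covered the point of 6 genes, Nkx2-2, Nkx6-1, Irx3, Lbx1, Tlx3 and Gsx2, against 27.9% of all genes. Against forebrain 5 did, all of these but Gsx2 (28%), against midbrain 6 (50.6%) and against hindbrain 6 (45.9%). The reverse held for 0 genes in each pair, with backgrounds of 1.39% for limb, 5.49% for forebrain, 0.437% for midbrain and 0.537% for hindbrain. All 9 points lie under limb H3K27me3. Of all such points neural tube covered 66.3%, forebrain 38.3%, limb 30.5%, hindbrain 8.03% and midbrain 1.82%. With so few covered by midbrain or hindbrain, 6 of 9 is close to the background of such points in those pairs. The pairwise shares over such points were not calculated. The counts above the share of all genes rested on low-ranked regions of the neural tube list. The region over Irx3 ranked 2615 of 14362, but those over Tlx3, Lbx1, Gsx2, Nkx6-1 and Nkx2-2 ranked 8491, 11321, 11474, 11688 and 13090, and what the rank was made from is not given in the sources used here. With both lists at 5251 regions, Irx3 alone was covered by neural tube and not by limb (9.32% of all genes), and 8 of the 9 points were covered by neither (65.8%). At 7349 regions, Irx3 was covered by neural tube alone (17%) and Gsx2 by forebrain alone (10.7%).

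**Figure D2:**
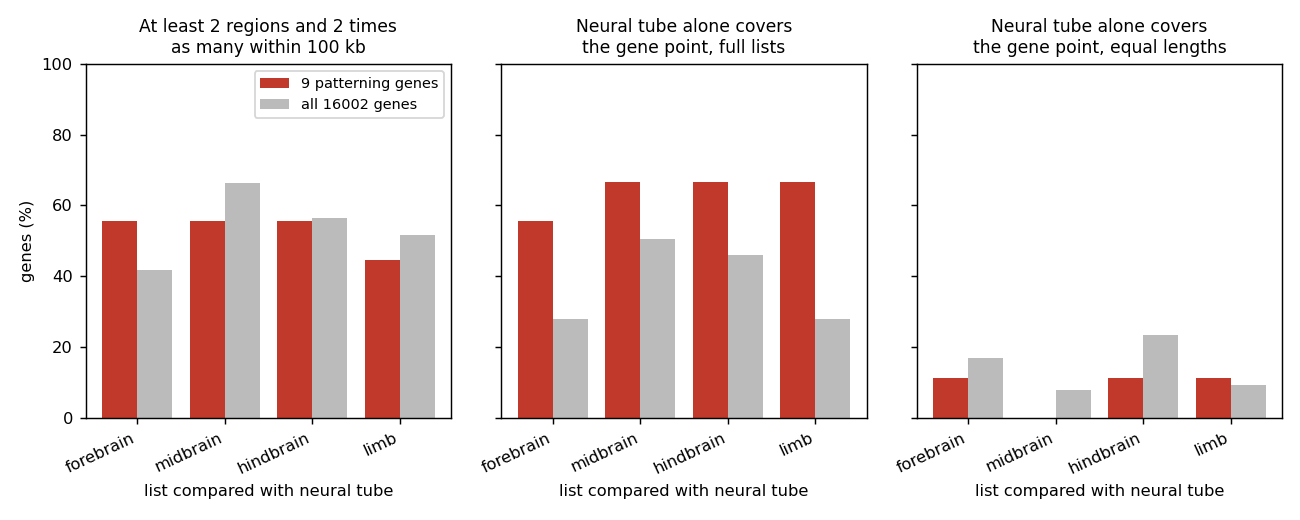
Percent of the 9 genes (red) and of all 16002 genes (grey) that were called for neural tube against each of 4 other SMARCA4 lists, by regions within 100 kb (left) and by a neural tube region alone over the gene point, with the full lists (middle) and with both lists cut to 1 length (right). The red bars exceed the grey in each comparison of the middle panel, and in the right panel 1 gene at most is called in each. The grey bars are over all genes and not over points under limb H3K27me3, where all 9 lie.

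The NKX genes had the fewest neural tube regions. Nkx2-1 specifies ventral forebrain, the lung and the thyroid, and is not a gene of the trunk neural tube. Its gene point (chromosome 12, 57637895, mm9) had no SMARCA4 region within 100 kb in neural tube, forebrain, midbrain, hindbrain, limb, heart or ESC, and 2 in face, the nearer at 15.7 kb. Forebrain, where the gene acts within the neural tube, thus held none. Nkx2-2, a factor of the progenitors next to the floor plate, had 1 neural tube region of 1650 bp whose midpoint lay 63 bp from the gene point (chromosome 2, 147012138). It overlapped no other SMARCA4 list and no control list, and the other SMARCA4 regions at this gene were 2 of face and 1 of ESC. Nkx6-1, expressed across the ventral progenitors that include those of motor neurons, had 1 neural tube region of 2450 bp over its point (chromosome 5, 102093730), with a face region and a control region overlapping it. Its only limb region lay 99.9 kb away, 473 bp from the point of Cds1.

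Dbx1 marks progenitors near the middle of the tube. Its only neural tube region, 2950 bp long, lay 16.6 kb from the point (chromosome 7, 56892205), and overlapped no other SMARCA4 list and no control. Forebrain, midbrain, hindbrain and limb had 0 regions there, heart 3, ESC 1 and face 9.

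Irx3, an Iroquois factor of intermediate progenitors, had 4 neural tube regions, with midpoints at 0.448, 3.68, 9.4 and 43 kb from its point (chromosome 8, 94325273). The first covers the point, is 3550 bp long and is the best ranked of the 6 start regions. It overlapped a heart region and no control. The transcript BC100534 starts 0.8 kb away, so the start region cannot be assigned to 1 of these 2 genes. The single midbrain region among all 9 genes lay here, 4.97 kb from the point, with 67 tags and a fold enrichment of 7.38 in the authors' table, and it overlapped the second neural tube region, a face region and a control region. Forebrain and hindbrain had none near the start. Their single regions lay 87.1 and 88.4 kb away on the lower-coordinate side, overlapping each other and an ESC region with a midpoint at 88.5 kb, and the forebrain region also overlapped a heart region at 87.6 kb and a face region at 87.4 kb. The hindbrain region held 25 tags and the ESC region 6 in the authors' tables, and neural tube had no region there.

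Mnx1 is the factor of motor neurons. None of its 3 neural tube regions covered its point (chromosome 5, 29805010). They lay at 10.7, 43.5 and 91 kb, and the last 2 were each 269 bp from the points of Gm1040 and Ube3c. All 3 overlapped a face region and a control region. The region at 10.7 kb overlapped the only limb region, and the region at Ube3c the only forebrain region. Regions at this gene were thus mostly regions at neighbouring starts.

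Lbx1 directs dorsal interneurons, and also migrating limb muscle precursors. Its 7 neural tube regions included 1 of 4900 bp over the point (chromosome 19, 45309726), which overlapped a control but no other SMARCA4 list, and 5 between 58.2 and 95.2 kb on the higher-coordinate side, 2 of which overlapped another SMARCA4 list than face. The 7th lay 446 bp from the point of Tlx1. The region at 58.2 kb was shared with forebrain, limb and face and overlapped a control. The regions at 89.1 and 90.8 kb overlapped no other SMARCA4 list and no control. The region at 95.2 kb overlapped one of the 2 hindbrain regions, which held 27 tags, while the other hindbrain region, at 19 kb with 14 tags, overlapped none of the SMARCA4 lists.

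Tlx3 selects the glutamatergic fate in dorsal horn neurons. Of its 4 neural tube regions, the longest, 5550 bp, covered the point (chromosome 11, 33103459), overlapped face alone among the SMARCA4 lists and overlapped no control. The other 3 lay at 40.3, 57 and 80 kb, the first 94 bp from the point of Npm1 and the second 975 bp from that of Fgf18. All 3 limb regions and both forebrain regions of Tlx3 overlapped these distant regions, and none covered the point. The 2 hindbrain regions lay at 55.9 and 58 kb, at Fgf18.

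Gsx2 acts in dorsal progenitors and in the ventral telencephalon. It was the only gene with a forebrain region over its point (chromosome 5, 75471625), 3750 bp long and 5244th of 7349, and it had a second forebrain region 5.55 kb away. A neural tube region of 2100 bp covered the point as well, and 4 more lay at 8.47, 30.9, 76 and 80.5 kb. The region at 30.9 kb lay 99 bp from the point of Chic2, and the only limb region overlapped it. All 5 neural tube regions at Gsx2 overlapped a control list.

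**Figure D3:**
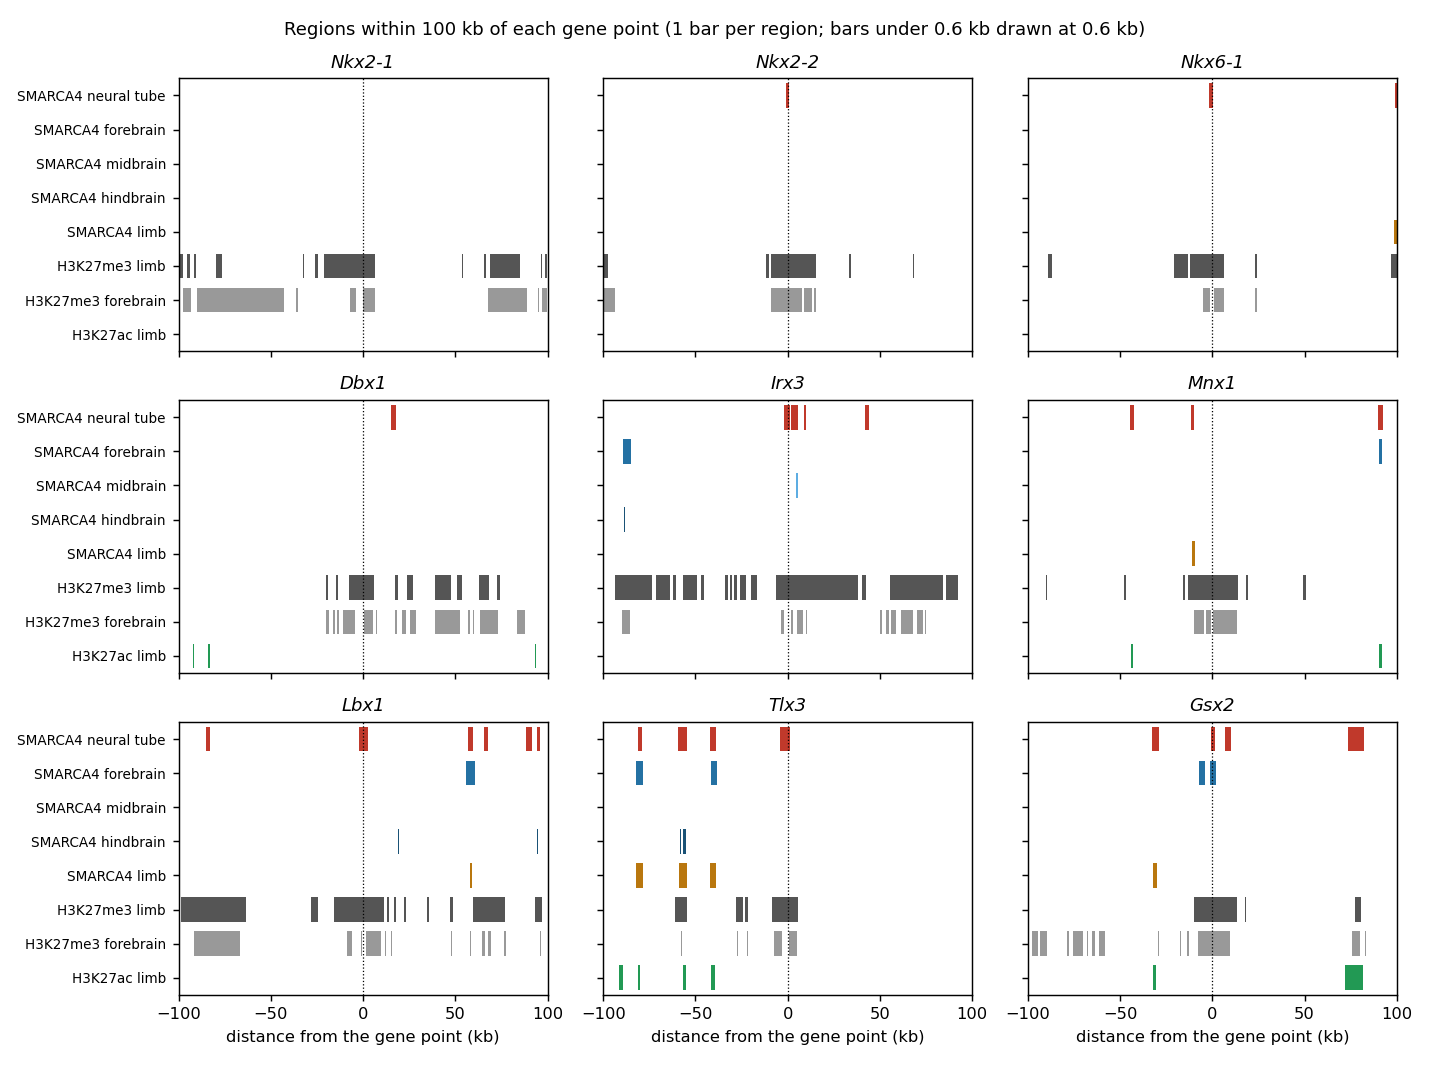
Regions of 5 SMARCA4 lists and 3 histone lists around each gene point (dotted line), with the distance in kb on the x axis. Red bars (neural tube) stand at the dotted line in 6 panels, a blue forebrain bar does so at Gsx2 only, dark and light grey bars (H3K27me3 of limb and forebrain) lie at or beside every gene point, and green bars (limb H3K27ac) stay at least 30.3 kb away.

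Seen together, 6 of the 26 neural tube regions lay within 1 kb of the start of another gene, 15 overlapped a control or input list and 17 overlapped face. That is 57.7% over a control or input list, against 67.8% of all neural tube regions, and 65.4% over face, against 72.1%. What part the sequence seen in controls has in these counts was not tested. Of the 26, 8 overlapped no other SMARCA4 list, or 30.8% (exact 95% binomial interval 14.3 to 51.8), against 22.3% of the whole list. They stood at Irx3 (2), Lbx1 (4), Nkx2-2 and Dbx1. All 7 limb regions overlapped a neural tube region, as did 90.8% of the whole limb list. Intervals cover counting error only.

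H3K27me3 spread widely over these genes in both limb and forebrain. A limb H3K27me3 domain covered 9 of 9 gene points, against 22.6% of all points. Other developmental regulators shared this, with 39 of 43 related patterning genes, 5 of 5 forebrain, 5 of 5 midbrain and hindbrain, 5 of 5 limb and 4 of 5 neural tube and trunk markers covered. The domains ranged from 13526 bp at Dbx1 to 44242 bp at Irx3, with Nkx2-1 at 27223, Mnx1 at 26995, Lbx1 at 26743, Nkx2-2 at 24036, Gsx2 at 23149, Nkx6-1 at 18187 and Tlx3 at 14081 bp. Their ranks ran from 84 (Lbx1) to 395 (Irx3) of 13137. Of the 20 kb around the point, limb H3K27me3 covered a median of 16.3 kb at the 9 genes and 0 at the median gene, and the lowest of the 9, 13.5 kb at Dbx1, was reached by 2.44% of all genes.

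Forebrain H3K27me3 covered 3 points, Nkx2-1, Nkx2-2 and Gsx2, against 3.72% of all points. At the other 6 it came close without covering it, with gaps of 243 bp at Dbx1, 348 at Mnx1, 381 at Lbx1, 775 at Nkx6-1, 889 at Tlx3 and 1759 at Irx3. All 9 genes had some within 10 kb, against 25.7% of all genes. It covered from 6.32 kb (Irx3) to 17.5 kb (Mnx1 and Gsx2) of the 20 kb, below limb at each of the 9. Within 100 kb the 9 genes had a median of 6 limb and 8 forebrain H3K27me3 regions, against 1 in each tissue over all genes, and all 9 had at least 1 of either (72.3% and 60% of all genes). These calls were cut into pieces of different size in the tissues (a median length of 2052 bp in limb and 990 bp in forebrain), which bears on the number of regions and on the gaps.

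H3K27ac of limb was at none of the 9 points, against 49.8% of all points, and at 0 of 9 within 10 kb, against 60.7%. The nearest region lay 30.3 kb from Gsx2, 39.4 kb from Tlx3, 42.8 kb from Mnx1, 83.2 kb from Dbx1, and over 100 kb from the other 5. Those nearest to Gsx2, Tlx3 and Mnx1 lay by the points of Chic2, Npm1 and Gm1040, at 31, 40.4 and 43.8 kb. Within 100 kb, 4 of the 9 genes had a limb H3K27ac region, against 88.8% of all genes. The lack over the point was not particular to these 9, since most of the 43 placed related patterning genes lacked limb H3K27ac there too. Forebrain H3K27ac was not analysed here.

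H3K4me1, which marks enhancers and the flanks of starts, covered 7 of 9 points in limb, all but Nkx2-2 and Mnx1 (55.2% of all points), and 4 in forebrain, Nkx6-1, Dbx1, Mnx1 and Gsx2 (31.1%). H3K4me3 divided the genes. In limb it covered the points of Nkx6-1, Mnx1, Lbx1 and Tlx3, 4 of 9 (70% of all points). In forebrain it covered 6, Nkx2-1, Nkx2-2, Nkx6-1, Dbx1, Tlx3 and Gsx2 (69.1%). Nkx2-1 had 6.1 kb of forebrain H3K4me3 and none of limb within 10 kb, with the nearest limb region 16658 bp away. Lbx1 was the reverse, with 7.8 kb in limb, a length that 1.81% of genes reach, and none in forebrain within 10 kb. Mnx1 had 4.88 kb in limb and 0.103 kb in forebrain. Nkx2-2 had 10.4 kb in forebrain and 4.42 kb in limb, Gsx2 6.48 and 2.16 kb, and Dbx1 6.37 and 2.29 kb. Both marks lay over the point of Nkx6-1, Mnx1, Lbx1 and Tlx3 in limb (4 of 9, 18.7% of all points) and of Nkx2-1, Nkx2-2 and Gsx2 in forebrain (3 of 9, 2.79%). These 3 lacked H3K4me3 over the point in limb. Limb H3K27me3 covered all 9 points, and of the 3622 points under it in all, 2987 were also under limb H3K4me3. Set against points of that kind, 4 of 9 is low and not an excess. In forebrain, 446 of the 595 points under H3K27me3 were also under H3K4me3. Whether the marks were in the same cells was not tested.

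**Figure D4:**
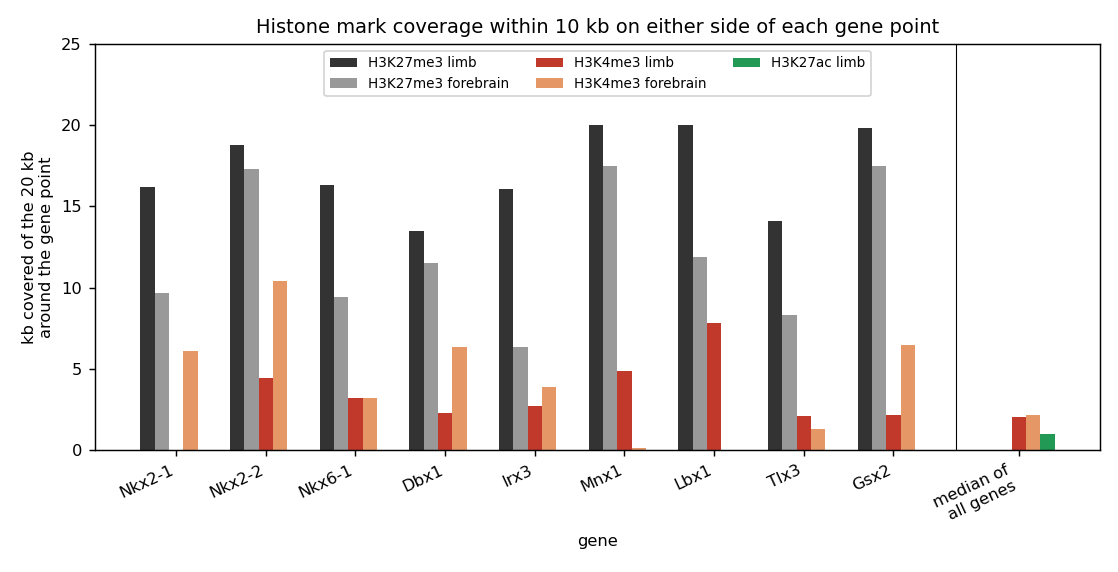
Length covered by each histone mark (kb) in the 20 kb around each gene point, with the median of all 16002 genes at the right; 1 library per bar. H3K27me3 of limb spans 13.5 to 20 kb at every gene against a median of 0, limb H3K27ac is 0 at all 9, and forebrain H3K4me3 is highest at Nkx2-2 (10.4 kb) and at or near 0 at Lbx1 and Mnx1.

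Most neural tube SMARCA4 regions at these genes overlapped H3K27me3 of another tissue. Of the 26, 20 overlapped H3K27me3 of limb or forebrain by at least 1 bp, or 76.9% (56.4 to 91), against 35.9% of all neural tube regions. With at least 50% of the region under the mark it was 15 of 26, or 57.7% (36.9 to 76.6), against 26.6%. With the mark of 1 tissue alone it was 19 of 26 (73.1%) in limb and as many in forebrain, against 32.6% and 23.7% of the whole list. The excess was not particular to neural tube SMARCA4, since control lists showed it at these genes too. Regions of the midbrain control overlapped H3K27me3 of limb or forebrain at 61.1% (27.2% of that list). For the EP300 face control it was 57.8% (18.6%), and for face SMARCA4 76.5% (22.5%). The overlap of the 26 neural tube regions with H3K4me3 was 73.1% against 70.6%, near that of the whole list, and with limb H3K27ac 30.8% (14.3 to 51.8) against 48.8%. All 8 regions over limb H3K27ac lay at Mnx1, Tlx3 and Gsx2, away from their points. Because limb H3K27me3 covers all 9 points, the 6 covered starts were also set beside all points under limb H3K27me3. Of 3622 such points, 66.3% were covered by a neural tube region, 38.3% by forebrain and 30.5% by limb, against 46.9%, 26% and 23.2% of the 12380 points outside it. Set against points of that kind, 6 of 9 in neural tube is close to the background, and 1 in forebrain and 0 in limb are below it. The same points were covered by the midbrain control at 61.8%, against 51% outside, and 4 of the 9 (Nkx2-1, Mnx1, Lbx1, Gsx2) were covered by that control (53.4% of all points).

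Apart from EP300 in ESC, the FLAG lists other than SMARCA4 had a region within 10 kb of at most 2 of the 9 genes. Within 100 kb, EP300 had 5 regions in face at 4 of 9 genes (52.4% of all genes) and 14 in ESC at 9 of 9 (82.9%). NCOA1 had 3 in hindbrain at 2 of 9 (20.1%) and NCOA2 5 at 4 of 9 (52.8%). SMARCC2 had 3 in hindbrain at 3 of 9 (16.4%) and 16 in face at 6 of 9 (74.2%), with 4 each at Lbx1 and Gsx2. The EP300 face region of Tlx3, for example, lay 65 bp from the point of Npm1, and the NCOA2 region of Gsx2 445 bp from that of Chic2. NCOA2, a coactivator of nuclear receptors, covered 2 points in hindbrain, Nkx6-1 (2134 bp, 64 tags in the authors' table) and Lbx1 (1171 bp, 39 tags), against 18.4% of all points. All 5 NCOA2 regions at these genes overlapped a control or input list, as did 93.5% of that list. So did 10 of 14 EP300 regions in ESC (60%), 4 of 5 in face (75.7%) and 9 of 16 SMARCC2 regions in face (49.7%). For NCOA1 and for SMARCC2 in hindbrain it was 0 of 3 each (52.2% and 4.27%). The hindbrain SMARCA4 list had no region within 10 kb of any of the 9 (22.1% of all genes). NCOA1 in hindbrain had 1 region within 10 kb, 3.7 kb from Tlx3 with 34 tags (6.22%), and SMARCC2 in hindbrain 1 at 2.25 kb from Tlx3 with 9 tags (2.26%). SMARCC2 in face had 1 within 10 kb, at Irx3 (32.7%). EP300, a histone acetyltransferase, had 0 in face within 10 kb (21.5%). In ESC it had a region within 10 kb of 6 genes (42.2%), at 0.79 kb from Mnx1, 3.04 from Nkx6-1, 3.19 from Dbx1, 3.69 from Irx3, 4.27 from Nkx2-2 and 8.45 from Gsx2. They held 7 to 9 tags each, where the median of that list is 7, and none covered a point (9.16% of all points), nor did any of EP300 in face (17.1%). SMARCA4 in ESC had 0 within 10 kb of any of the 9 (15.9%).

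The related genes of neural tube patterning, a list of 46 of which 43 could be placed, had a median of 2 neural tube regions, the same as all genes. At least 1 region lay at 41 of 43, near the 89.9% of all genes that had one. Of these 43, 22 were higher in neural tube than in forebrain (41.6% of all genes), 28 than in midbrain (66.3%), 27 than in hindbrain (56.3%) and 25 than in limb (51.7%), near the background in each. Another 4 were higher in forebrain (3.39%) and 2 in limb (0.744%). The most regions were at Lbx2 (10), Pax2 (9), Pax7 (8) and Lmx1b (7). Sim1, a factor of a ventral interneuron class, had 0, and Dbx2 and En1 had 1 each. A neural tube region covered the point of 25 of the 43 (51.3% of all points), limb 7 (24.8%), forebrain 6 (28.8%), hindbrain 1 (5.97%) and midbrain 0 (1.16%). Limb H3K27me3 covered 39 (22.6%) and forebrain H3K27me3 11 (3.72%).

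Over the 8 SMARCA4 lists, the genes with the profile of counts most like the mean of the 9 were Chaf1a and Sh3gl1 (Pearson r of 0.989 on log2 of 1 plus the count), Mxra8 and Samm50 (0.988) and Lrfn3 (0.983). None is a patterning gene, and Chaf1a and Sh3gl1 hold the same counts in all 8 lists. The r of a single member with the mean of the 9 ran from 0.68 (Tlx3) to 0.94 (Lbx1). Each member is itself part of that mean, which raises its r, and the outside genes are the top of 14333 candidates. The members' values thus cannot be set beside theirs. These correlations are descriptions over 8 lists whose lengths differ, and all genes share those lists.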

How the data were processed

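FLAG-tagged coactivators and histone marks were measured by ChIP-seq in embryonic day 11.5 mouse tissue and in ESC. The series has 34 samples, and 30 peak lists were used, of which 14 are FLAG lists (8 of SMARCA4), 6 are controls, 7 are of histone marks and 3 of their inputs. Per the submitters' processing notes, which give no version, BWA and the build mm9 were used. The peak caller is not given in the sources used here. Each list is of 1 library. Of the lists, 16 deposited tables give, per the file headers, a count of tags per peak, a score, a fold enrichment ratio and a false discovery rate in percent, all the authors' own values. The other 14 deposited lists give position and rank. Library depth is unknown.

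Gene points were inferred from summits and distances. Left out were 2833 names with neither agreeing peaks nor a summit listed at no distance from the gene. The 314 ties were placed at the lower coordinate. Regions were counted by midpoint within 100 kb, or by overlap of at least 1 bp with the point. The code (Python 3.11.15, pandas 2.3.3, numpy 2.4.6, scipy 1.17.1) was tested on simulated data. Shares have exact (Clopper-Pearson) 95% intervals. The members and gene lists were chosen with earlier results of these data known. Of related genes, the 4 with most and the 4 with fewest neural tube regions are named, with ties broken by symbol; 1 of them is not reported here. The genes of like profile are the top 5 by Pearson r among genes over 200 kb away with at least 5 SMARCA4 regions. Alternatives changed the territory, the rank and control filters, the call and the overlap.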

Additional observations from a re-analysis of the deposited data

How the results depend on the processing

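The number of neural tube regions at the 9 genes (26) was 28 with any overlap of the 200 kb, 23 after merging and 20 without regions at starts of other genes. It was 15 within 50 kb, 43 within 200 kb, 10 by nearest gene, 15 without regions within 1 kb of any gene point, 5 at the length of the limb list, 8 in the better-ranked 50% and 11 without regions over control or input lists. Genes called higher than in forebrain (5) were 3 within 50 kb, 8 within 200 kb, 1 by nearest gene, 2 at equal length, 2 in the better-ranked 50%, 2 without regions over controls and 3 at a fold of 3. Against midbrain (5) they were 2 by nearest gene, 0 at equal length, 3 in the better-ranked 50% and 2 without regions over controls. Against hindbrain (5) they were 2 by nearest gene, 1 at equal length, 3 in the better-ranked 50% and 2 without regions over controls. Against limb (4) they were 7 within 200 kb, 2 by nearest gene, 1 at equal length and 2 without regions over controls. For these alternative calls the share of all genes was not calculated, so they have no background beside them. The share of regions over no other SMARCA4 list (30.8%) rose to 63.6% without regions over controls, 61.5% when 50% of the region had to overlap, and 53.8% without the face list; by construction, fewer regions of the other lists then count. The share over H3K27me3 stayed between 57.7% and 86.7% in its 8 alternatives, inside its interval. Chosen after seeing the data, the count of gene points under a neural tube region (6) was 1 at the length of the limb list and 1 in the better-ranked 50% (both Irx3), and 3 without regions over controls (Nkx2-2, Irx3, Tlx3). Limb H3K27me3 covered 9 of 9 in each of its 2 alternatives, and forebrain H3K27me3 went from 3 to 8 within 1 kb of the point. The other way, 1 gene was called in 1 setting (Lbx1, higher in hindbrain at equal length) and 0 in the rest. Of 81 alternative values, 48 stayed within 1.5 times the count or within the interval. Other causes were not tested. No paired analysis was possible because each condition has 1 library and the labels give no replicate numbers. With 1 library a condition there is no replicate check, and depth is unknown; whether list length follows depth was not tested.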
